A study of Mus musculus with 18 samples.

Results

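The genes described here are the mouse Fc gamma receptors and their closest partners, 6 of the 32285 genes measured: Fcgr1, Fcgr3, Fcgr4, Fcgr2b, Fcer1g and Fcrls. They were picked by symbol, and the choice was made with earlier results of these libraries known, among them the levels of Fcgr2b in fibroblasts and of the receptors in myeloid cells of expanded and control skin. The members were therefore chosen by the same comparison of arms that is described below, so their differences between arms are given as descriptions, with no p-value. Where members called by a fit over all genes are counted, the count stands beside the share called among all genes and nothing is read from it. The rule has no threshold, and all 6 genes had a row in each of the 10 matrices.

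The data are 3′ mRNA counts of single mouse skin cells captured in droplets, in which each molecule is counted once by its unique molecular identifier (UMI). Every mouse underwent surgery, with an incision on the back near the tail and a path opened under the skin towards the neck. In the expanded arm a hydrogel expander, an implant that stretches the overlying skin, was placed near the neck, and the control arm had the surgery without an expander. No genotype, strain, sex or age was given in the labels used here. Each arm had 5 libraries, from day 1 (sequencing rounds 1 and 2), day 2 (rounds 1 and 2) and day 4 (round 1). Mice of 1 arm and round were pooled in 1 tube, so tube and arm cannot be told apart within a round. In 8 libraries hashtag antibodies marked the mouse each cell came from. Replicates are libraries of pooled mice, and p-values measure the spread between them.

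Fc gamma receptors bind the constant part of IgG antibodies. Fcgr1, Fcgr3 and Fcgr4 encode activating receptors, which signal through the common gamma chain encoded by Fcer1g and its activation motif (ITAM). Fcgr2b encodes the inhibitory receptor of the family, whose own tail carries an inhibitory motif (ITIM) that recruits phosphatases. Fcrls encodes a secreted Fc receptor-like protein known from resident macrophages and microglia. In skin, macrophages, dendritic cells, mast cells and neutrophils are the known carriers of these receptors.

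Per the RefSeq annotation of GRCm38.p6, 4 of the genes lie on chromosome 1: Fcgr2b (chr1:170960558-170976071), Fcgr4 (chr1:171018926-171029761), Fcgr3 (chr1:171051169-171065915) and Fcer1g (chr1:171229572-171234349). Fcrls (chr3:87250736-87263765) and Fcgr1 (chr3:96282909-96293969) lie on chromosome 3. The 170 bases before the annotated start of each gene are shown, 5′ to 3′ on the gene's strand, because Fcgr2b was found in stromal cells in which the other members were low. Capitals mark matches to 1 of 5 motifs searched on both strands: the PU.1 box GAGGAA, AP-1 TGANTCA, the gamma-activated site (GAS) TTCNNNGAA, C/EBP TTGCGCAA and the NF-kappaB motif.
Fcgr1, chr3:96293970-96294139, minus strand: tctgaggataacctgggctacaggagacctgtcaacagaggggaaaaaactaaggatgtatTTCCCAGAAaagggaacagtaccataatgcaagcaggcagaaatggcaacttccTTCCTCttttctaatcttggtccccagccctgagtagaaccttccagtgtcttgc
Fcgr3, chr1:171059395-171059564, minus strand: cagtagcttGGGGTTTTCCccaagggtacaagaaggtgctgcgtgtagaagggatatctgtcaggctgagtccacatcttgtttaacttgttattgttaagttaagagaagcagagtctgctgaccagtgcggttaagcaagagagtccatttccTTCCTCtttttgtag
Fcgr4, chr1:171018756-171018925, plus strand: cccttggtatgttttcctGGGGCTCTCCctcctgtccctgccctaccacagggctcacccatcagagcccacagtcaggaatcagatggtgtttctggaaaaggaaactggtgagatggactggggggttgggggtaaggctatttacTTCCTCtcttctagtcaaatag
Fcgr2b, chr1:170976072-170976241, minus strand: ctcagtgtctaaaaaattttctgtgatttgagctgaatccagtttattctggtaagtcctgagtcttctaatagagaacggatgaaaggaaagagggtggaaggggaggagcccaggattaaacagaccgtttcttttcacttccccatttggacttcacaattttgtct
Fcer1g, chr1:171234350-171234519, minus strand: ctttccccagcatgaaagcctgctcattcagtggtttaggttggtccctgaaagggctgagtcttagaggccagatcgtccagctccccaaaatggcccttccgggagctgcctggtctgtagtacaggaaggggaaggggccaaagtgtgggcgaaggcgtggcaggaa
Fcrls, chr3:87263525-87263694, minus strand: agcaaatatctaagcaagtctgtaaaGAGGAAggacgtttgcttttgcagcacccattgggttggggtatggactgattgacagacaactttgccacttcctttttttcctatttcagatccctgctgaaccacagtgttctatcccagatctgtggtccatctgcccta

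A PU.1 box, the letters bound by a transcription factor of myeloid cells, was found before the start of 4 of the 6 genes. It lay 55 bases before the start of Fcgr1, 15 before that of Fcgr3, 22 before that of Fcgr4 and 144 before that of Fcrls. These letters were absent from the windows of Fcgr2b and Fcer1g. The box occurs in 28.1% of all 32544 promoter sequences of 250 bases before to 50 after a start, so a match is common. Fcgr1 alone among the 6 held the GAS letters, bound by STAT factors, 109 bases before the start, found in 8.33% of promoters. Fcgr3 and Fcgr4 held NF-kappaB letters, 161 and 152 bases before the start, found in 8.49%. AP-1 letters (7.79% of promoters) and C/EBP letters (0.184%) were in none of the members. For Fcgr3 the table lists a second, nearby start, with the same matches, and the starts of Fcgr3 and Fcrls used here lie within the annotated gene. All matches are descriptions of letters, not of binding.

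Fcgr2b and Fcgr3 are related in sequence. Of the 31-base words in the last 500 bases of Fcgr2b transcripts, where 3′ libraries read, 5.10% also occurred somewhere in Fcgr3 transcripts, and 0 words were shared between the ends of both genes. The other pairs of members shared no such word. Fcgr2b overlaps an annotated antisense gene, Gm38204, on the opposite strand, and reads of the pair cannot be told apart where strand was not used in counting.

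After filters 46065 cells remained, in 39 clusters. Clusters were named from marker genes without the 6 members: 15 classes were named and 13 clusters stayed unnamed. Of the 3307 dendritic-like cells, 3195 lay in cluster 1, led by Ear2, Lyz1, Mgl2 and Cd209e. This cluster carried the dendritic markers Flt3, Cd209a, Ccr7, Zbtb46 and Itgax, but none of them was among its leading genes. Its marker score was 0.625 for dendritic and 0.455 for macrophage or monocyte cells, so the name is less sure than others. Libraries held between 17726739 and 75470722 UMIs. Between 1 and 23 barcode sequences were shared by any 2 libraries. The control library of day 2, round 2 stood apart from the other controls: 45.8% of its macrophage or monocyte-like cells lay in the monocyte cluster 3, against 3.09% to 9.14% in the other 4 controls. Fitted log2 fold changes without it stand beside those of Fcgr2b in fibroblast-like cells and of Fcgr1 and Fcgr2b in both antigen-presenting classes.

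Across cell classes of control skin, the 6 genes fell into different patterns. Levels are given as CPM, the UMIs of a gene divided by all UMIs of the summed cells of a class in a library and scaled to a common total, for each library with at least 20 such cells. Fcer1g, the shared signalling chain, was the most widely found: 2386 CPM ± 435 (SD, n = 2) in neutrophil-like, 1439 ± 348 (n = 5) in macrophage or monocyte-like, 1379 ± 335 (n = 5) in mast-like, 1193 ± 236 (n = 5) in dendritic-like and 902 ± 358 (n = 5) in T cell-like cells. Both neutrophil-like libraries lay above every macrophage or monocyte-like library, and the ranges of the other 4 classes overlapped. In all other named classes the mean of Fcer1g was 28.2 CPM or lower. Within the T cell-like class Fcer1g was carried by cluster 14, whose leading genes include the gamma delta T cell receptor genes Trdc and Trdv4, at 1729 ± 212 CPM (n = 5). The unnamed cluster 22, whose leading genes include Gzmc, Xcl1 and Ncr1, genes of cytotoxic cells, had 1253 ± 242 CPM. It also carried the T cell markers Cd3d, Cd3e, Cd3g, Trac, Trbc2, Trdc and Icos. Its marker score was 1 for T cells and 0.833 for NK cells.

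The activating receptors were highest in myeloid classes. Fcgr1, the high-affinity receptor, had 113 ± 69.5 CPM in macrophage or monocyte-like and 36.7 ± 31.8 CPM in dendritic-like control cells. Across libraries the ranges of 61.9 to 226 and 11.0 to 87.4 CPM overlapped. Within every control library the macrophage or monocyte-like level was the higher of the pair. In the other named classes the mean of Fcgr1 was at most 1.035 CPM. Fcgr3, the low-affinity activating receptor, had 409 ± 75.1 CPM in macrophage or monocyte-like, 359 ± 81.9 in neutrophil-like (n = 2) and 224 ± 76.5 in dendritic-like cells, then 96.7 ± 49.7 in mast-like cells (n = 5). Fcgr4, a receptor for IgG2 subclasses known from monocytes and neutrophils, peaked in neutrophil-like cells, at 109 ± 5.16 CPM (n = 2), against 14.0 ± 5.47 in macrophage or monocyte-like and 4.37 ± 1.16 in dendritic-like cells. Fcrls was at 272 ± 47.9 CPM in dendritic-like and 260.5 ± 55.2 in macrophage or monocyte-like cells and at most 9.78 CPM in the other named classes.

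The inhibitory receptor gene Fcgr2b had a different order. Dendritic-like cells had 402 ± 87.7 CPM and macrophage or monocyte-like cells 363 ± 135, with overlapping ranges of 251.5 to 467 and 212 to 566 CPM. Schwann-like cells, the glia of skin nerves, came next at 109 ± 25.3 CPM (n = 4). That place depends on which glial clusters carry the name. At a clustering resolution of 0.5 only the cluster led by Prx and Mag was named, with 15.0 ± 20.6 CPM in control and 5.95 ± 6.30 CPM in expanded libraries (n = 3 each). The order went on with mast-like cells at 82.3 ± 10.5 (n = 5) and neutrophil-like cells at 47.0 ± 18.7 (n = 2). The ranges of Schwann-like and mast-like cells overlapped, as did those of neutrophil-like and fibroblast-like cells. The next classes were within their spread of each other: fibroblast-like (14.3 ± 19.0), T cell-like (10.7 ± 14.2), melanocyte-like (7.88 ± 7.54) and dermal papilla-like cells (5.84 ± 6.23). Endothelial-like, keratinocyte-like and muscle satellite-like cells had means between 1.30 and 2.52 CPM.

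**Figure D1:**
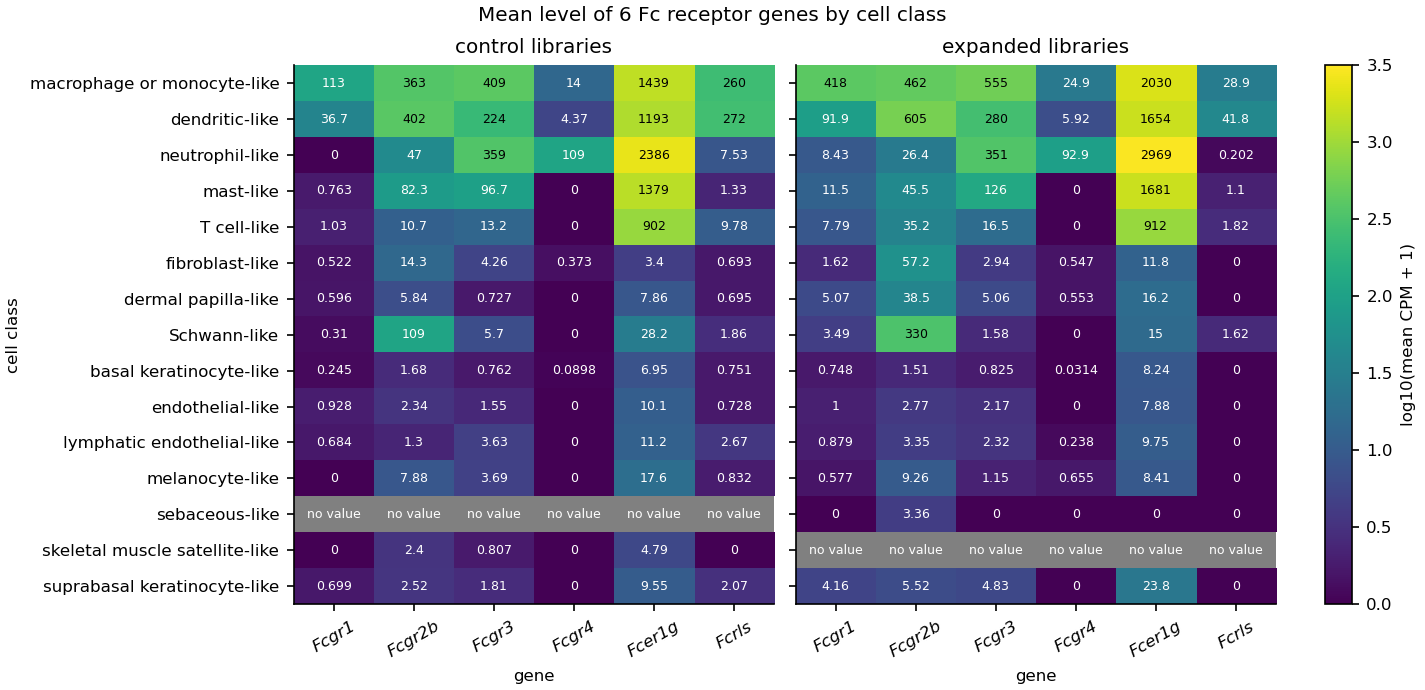
Heat map of the mean CPM of the 6 genes (columns) in 15 named cell classes (rows) of control (left) and expanded (right) libraries, with the mean printed in each cell and colour as log10(mean CPM + 1); grey marks classes with no library of at least 20 cells. Fcgr1, Fcgr3, Fcgr4 and Fcrls are bright in myeloid rows, while Fcgr2b is also bright in the Schwann-like row and, in expanded libraries, reaches 57.2 CPM in the fibroblast-like row.

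The genes whose class means were most like those of each member differed between members. The likeness is Pearson's r of log2(CPM + 1) over 15 class means, which share libraries and depth. For Fcgr1 they were Msr1 (0.98), Pld4 and Ms4a7 (0.97 each), for Fcgr3 Tyrobp (0.99), Lilr4b and Pirb (0.98 each) and for Fcer1g Laptm5, Cd53 (0.99 each) and Dock2 (0.98). Fcgr4 was nearest to Ankrd66, P2ry13 and Ifitm6 (0.99 each), and Fcrls to Lyz1, Pld4 and Cd180 (0.98 each). Fcgr2b had the lowest likeness of the 6 to any gene, with Rassf4 at 0.91 and Adap1 and Abca9 at 0.88.

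In fibroblast-like cells, the collagen-making cells of the dermis, Fcgr2b was at 54.0, 42.2, 68.1, 62.8 and 59.0 CPM in the expanded libraries, listed as day 1 rounds 1 and 2, day 2 rounds 1 and 2, and day 4. The control libraries in the same order had 2.73, 3.07, 5.37, 47.4 and 12.8 CPM. The expanded library was higher in 5 of 5 pairs of the same day and round. The arms overlapped only through the day 2, round 2 control at 47.4 CPM, which lay above the day 1, round 2 expanded library. The means were 57.2 ± 9.83 and 14.3 ± 19.0 CPM (SD, n = 5 each), 4.01-fold apart, and edgeR's fitted log2 fold change was 2.34 ± 0.55 (SE). Without the day 2, round 2 control library the fitted value was 3.23. These values rest on 45 to 699 Fcgr2b UMIs per control library and 104 to 687 per expanded library.

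**Figure D2:**
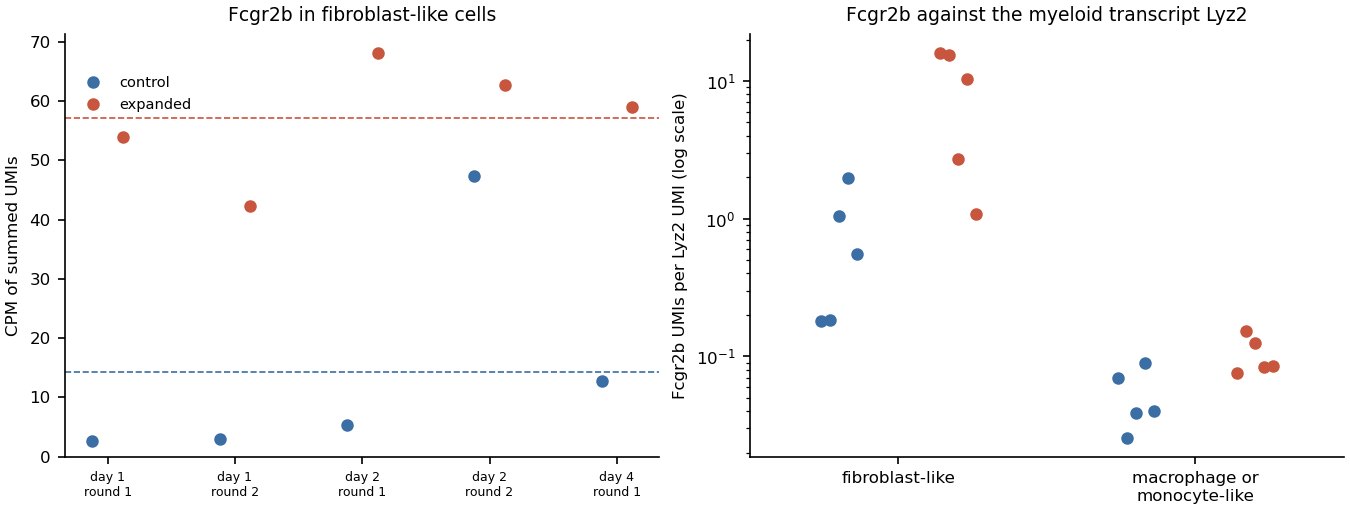
Left, Fcgr2b in fibroblast-like cells as CPM (y axis) by day and sequencing round (x axis), 1 point per library, with dashed lines at the arm means of 14.3 and 57.2 CPM. Right, Fcgr2b UMIs per UMI of the myeloid gene Lyz2 on a log axis in fibroblast-like and macrophage or monocyte-like cells, 1 point per library; every fibroblast-like point lies above every macrophage or monocyte-like point for this reference gene, while per Fcgr3 UMI 3 control libraries lie within the macrophage or monocyte-like range.

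The share of cells with an Fcgr2b UMI was compared at equal depth. After each cell was thinned to 2000 UMIs, 1.84% ± 2.16 of control and 8.89% ± 2.12 of expanded fibroblast-like cells had an Fcgr2b UMI (SD over 5 libraries). Unthinned, the shares ran from 1.85% to 15.8% in control and from 16.6% to 31.3% in expanded libraries. Basal keratinocyte-like cells, which are not known to carry the receptor, had 0.439% in control and 0.173% in expanded libraries. This low share differed between classes. Endothelial-like cells had 0.319% and 0.211%, suprabasal keratinocyte-like cells 0.615% (n = 4) and 1.74% (n = 3), and T cell-like cells 0.229% and 2.05%. Median depth per cell before thinning ran from 8108 to 14030 UMIs in control and from 10510 to 18920 in expanded fibroblast-like libraries, and from 8943 to 20100 in basal keratinocyte-like libraries.

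The other members were low in fibroblast-like cells. Fcer1g had 0.358 to 5.84 CPM in control and 3.02 to 26.9 CPM in expanded libraries, with the expanded library higher in 3 of 5 pairs. Fcgr3 had 3.403 to 5.13 CPM against 1.12 to 5.54 CPM, with a fitted log2 fold change of -0.79. Fcgr1 was at most 1.63 and 6.33 CPM and Fcgr4 at most 0.475 and 1.58 CPM in control and expanded libraries. Fcrls had 76 UMIs in all over the controls, at most 1.25 CPM, and 0 in each expanded library, where a count of 0 allows between 0.236 and 1.81 CPM (3 counts per library, counting error only). No fold is given for it. Of the 6 genes, 3 passed the filter on low counts in this class. Of these, 2 were called at an adjusted p under 0.05 (Fcgr2b higher, Fcgr3 lower), beside 35.8% of all 12261 genes tested. Nothing is read from that count, since the members were chosen on this comparison.

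RNA from immune cells was measured in the same fibroblast-like cells. The summed level of 12 immune genes ran from 37.2 to 115 CPM in control and from 31.8 to 266 CPM in expanded libraries, highest in the expanded libraries of day 2, round 1 and day 4. Of the 12 genes, 2 rose (Cd68 and Coro1a) and 3 fell (C1qa, C1qb, C1qc), beside 35.8% of all genes tested, per edgeR's quasi-likelihood test with Benjamini-Hochberg adjustment over all genes. Fcgr2b was also counted per UMI of Lyz2, a lysozyme gene of myeloid cells. Per Lyz2 UMI, expanded fibroblast-like cells had 15.98, 15.5, 2.71, 10.4 and 1.08 Fcgr2b UMIs, control fibroblast-like cells 0.180, 0.182, 1.05, 1.96 and 0.551, and macrophage or monocyte-like cells between 0.0257 and 0.152 in either arm. Per Lyz2 UMI, the fibroblast-like ratio was above every macrophage or monocyte-like ratio in all 10 libraries. With other reference genes this did not hold in the controls. Per Fcgr3 UMI, the day 1 and the day 2, round 1 control fibroblast-like cells had 0.803, 0.875 and 1.05 Fcgr2b UMIs, within the macrophage or monocyte-like range of 0.606 to 1.10. The other 7 fibroblast-like libraries had 2.78 to 37.7. Per 100 UMIs of the summed immune genes, the day 1 controls had 2.96 and 4.38, within the macrophage or monocyte-like range of 0.811 to 4.58, and the other 8 had 11.1 to 170.5. T cell-like cells had 0 to 0.383 Fcgr2b UMIs per Lyz2 UMI and 0 to 3.33 per Fcgr3 UMI, from 0 to 131 Fcgr2b UMIs per library. Per Lyz2 UMI, the day 1 control fibroblast-like values of 0.180 and 0.182 lay within this T cell-like range. The part of immune RNA in the low control values was not tested.

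When fibroblast-like cells with any UMI of 11 immune genes were left out, 7983 cells remained and the fitted log2 fold change of Fcgr2b was 2.59. Of the thinned control cells with an Fcgr2b UMI, 17 of 146 (11.6%) also had an immune UMI, against 8.46% of those without Fcgr2b. In expanded libraries these shares were 9 of 137 (6.57%) and 6.83%.

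By mouse, all 9 expanded mice with at least 20 fibroblast-like cells had between 47.2 and 148 CPM of Fcgr2b, with a median of 68.0. The 14 control mice had between 0.716 and 98.3 CPM, with a median of 18.2. The control mice of day 2 were split by round: the 3 mice of round 1 had 0.716 (1 UMI), 4.00 and 22.8 CPM, and the 4 mice of round 2 had 30.2, 63.6, 91.8 and 98.3 CPM. The high control library was thus high in each of its 4 mice. The 4 control mice of day 4 lay between 11.0 and 19.3 CPM and the 4 expanded mice of day 4 between 61.0 and 79.7 CPM.

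Fcgr2b was not evenly spread over stromal clusters. Among the 6 fibroblast-like clusters its control mean was lowest in cluster 0, led by Klk1 and Cpz, at 0.860 to 3.09 CPM in the 5 control libraries, and next lowest in cluster 21, led by Sult1e1 and Cxcl13, at 0 to 9.88 CPM. Cluster 29, led by Apod and Ebf2, had 0 UMIs in 3 controls and a mean of 4.77 ± 5.41 CPM in the 4 expanded libraries with at least 20 cells. Its control mean of 13.5 ± 27.0 CPM rests on the day 2, round 1 control at 61.6 CPM (9 UMIs in 21 cells). There the expanded mean was thus below the control mean, while the expanded library was higher in 3 of 4 pairs. In cluster 0 the Fcgr2b means were 1.59 CPM in control and 13.9 CPM in expanded libraries (n = 5 and 2). In cluster 7, led by Igfbp2 and Grem1, they were 11.2 and 29.1 CPM (n = 5 and 3). The expanded library was higher in 2 of 2 and 3 of 3 pairs, with overlapping arms. In cluster 5, led by Cilp and Lox, Fcgr2b was at 11.5 ± 8.80 CPM in control and 85.1 ± 23.6 in expanded libraries (n = 5 each), with no overlap. Cluster 12, led by Tnc, Saa3 and Timp1, had 50.6 ± 58.6 and 87.5 ± 24.4 CPM, which overlap. Fcgr2b reached 151 CPM there in the day 2, round 2 control, against 13.6 and 5.94 CPM in the day 1 controls. Cluster 12 made up 3.37% to 3.98% of the fibroblast-like cells in the controls of day 1 and of day 2, round 1. It made up 19.1% and 17.5% in the controls of day 2, round 2 and day 4, and 11.5% to 46.5% in the expanded libraries. Among controls the day 2, round 2 library had both the highest share of cluster 12 and the highest Fcgr2b of the class. The day 4 control, at 17.5%, had less Fcgr2b in the class than the day 1, round 1 expanded library, at 11.5%. Cluster 0 made up 26.6% to 53.9% in control and 1.84% to 13.9% in expanded libraries, and cluster 29 made up 1.78% to 5.41% and 8.11% to 26.5%. The part of this makeup in the class difference was not tested.

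Levels of Fcgr2b were higher still in clusters that did not meet the rule for a name. Cluster 18, led by Mme and Ereg and carrying the fibroblast markers Col3a1, Pdgfra, Dpt and Mfap5, had 7.59, 16.3, 23.8, 54.3 and 124 CPM in control libraries in rising order. Its expanded libraries had 172, 172, 209, 414 and 445 CPM, all above the controls. Cluster 2, led by Coch and Fmod, had 9.22 to 47.5 CPM in control and 141 to 205 CPM in expanded libraries, again with no overlap. Cluster 17, led by Acan and Hapln1, had 4.50 to 20.3 CPM against 52.1 to 124 CPM (n = 5 and 4). In dermal papilla-like cells, the signalling cells at the hair root, Fcgr2b was at 2.66 CPM in the expanded library of day 1, round 2 and at 57.2, 50.8 and 43.2 CPM in those of day 2 and day 4. The controls in the same order had 2.69, 0, 6.34 and 14.3 CPM.

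Schwann-like cells formed a pair of clusters that differed in Fcgr2b. Cluster 26, led by Prx and Mag, genes of myelinating cells, had at most 38.2 CPM in any library with at least 20 cells. Cluster 23, led by Cdh19 and Foxd3, had 104, 157, 171 and 291 CPM in control and 207, 384, 465 and 715 CPM in expanded libraries, which overlap through day 4. There the control library was higher, at 291 against 207 CPM. Of the other members in cluster 23, Fcer1g had 7.18 to 12.1 CPM in 3 controls and 130 CPM in the day 4 control (45 UMIs), where Fcgr2b was also highest among controls. It had 4.76 to 33.0 CPM in expanded libraries, and Fcgr4 had 0 UMIs.

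**Figure D3:**
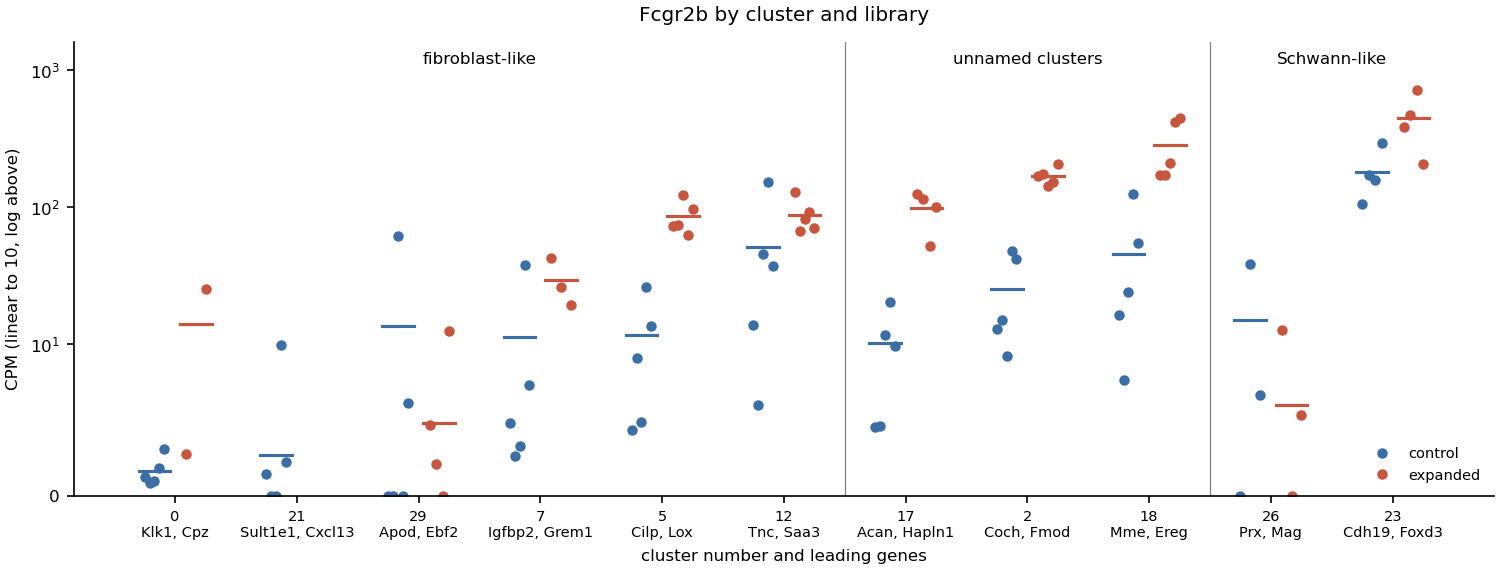
Fcgr2b as CPM (y axis, linear to 10 and logarithmic above) in 6 fibroblast-like, 3 unnamed and 2 Schwann-like clusters (x axis, with cluster number and leading genes), 1 point per library with at least 20 cells and a bar at the arm mean. Expanded points lie above all control points in clusters 5, 17, 2 and 18, and the arms overlap in clusters 0, 29, 7, 12, 26 and 23; cluster 21 had no expanded library with at least 20 cells.

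In macrophage or monocyte-like cells, which take up antibody-coated material through these receptors, Fcgr1 had the largest ratio between arms of the 3 activating receptors. Its control libraries had 75.2, 67.8, 61.9, 226 and 133 CPM and its expanded libraries 292, 342, 435, 657 and 363 CPM, in the order day 1 rounds 1 and 2, day 2 rounds 1 and 2, day 4. The arms did not overlap, and the means of 113 ± 69.5 and 418 ± 144 CPM were 3.70-fold apart, with a fitted log2 fold change of 1.82 ± 0.29 (SE). The highest library of each arm was that of day 2, round 2.

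Fcgr3 was higher in the expanded library in 5 of 5 pairs, with means of 409 ± 75.1 and 555 ± 81.8 CPM and ranges of 325 to 514 and 453 to 668 CPM that overlap. Fcgr4 was low and changed direction between pairs: 9.29, 16.3, 7.73, 15.6 and 21.1 CPM in control and 43.6, 9.88, 20.6, 36 and 14.2 CPM in expanded libraries. Fcer1g, the chain these receptors need, went from 1439 ± 348 to 2030 ± 366 CPM and was higher in 5 of 5 pairs. Its fitted log2 fold change was 0.39 ± 0.13 (SE).

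For the inhibitory gene Fcgr2b the ratio of means was 1.27 in this class. It had 356, 212, 279, 566 and 400.5 CPM in control and 470.5, 284, 389, 513 and 654 CPM in expanded libraries, higher in 4 of 5 pairs, with overlapping arms. Activating UMIs (Fcgr1, Fcgr3 and Fcgr4 together) per Fcgr2b UMI were 1.54 ± 0.289 in control and 2.27 ± 0.567 in expanded libraries, a ratio of transcripts and not of receptors. Fcgr1 made up 19.7% ± 6.46 of the activating UMIs in control and 41.2% ± 5.97 in expanded libraries. Fcrls went the other way, from 184, 242, 336, 264 and 277 CPM in control to 93.3, 16.9, 8.07, 11.6 and 14.6 CPM in expanded libraries. It was lower in 5 of 5 pairs with no overlap, and its fitted log2 fold change was -3.77 ± 0.61 (SE).

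All 6 genes passed the filter in this class and 3 were called (Fcgr1 and Fcer1g higher, Fcrls lower), beside 26.5% of the 9795 genes tested. Nothing is read from this count either. Without the day 2, round 2 control library the fitted log2 fold changes were 2.11 for Fcgr1, 0.41 for Fcgr2b, 0.47 for Fcer1g and -3.72 for Fcrls. By mouse, Fcrls was between 163 and 360.5 CPM in 14 control mice and between 3.35 and 70.5 CPM in 12 expanded mice, without overlap. Fcgr1 was between 50.3 and 334 CPM in control and between 104 and 724 CPM in expanded mice.

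**Figure D4:**
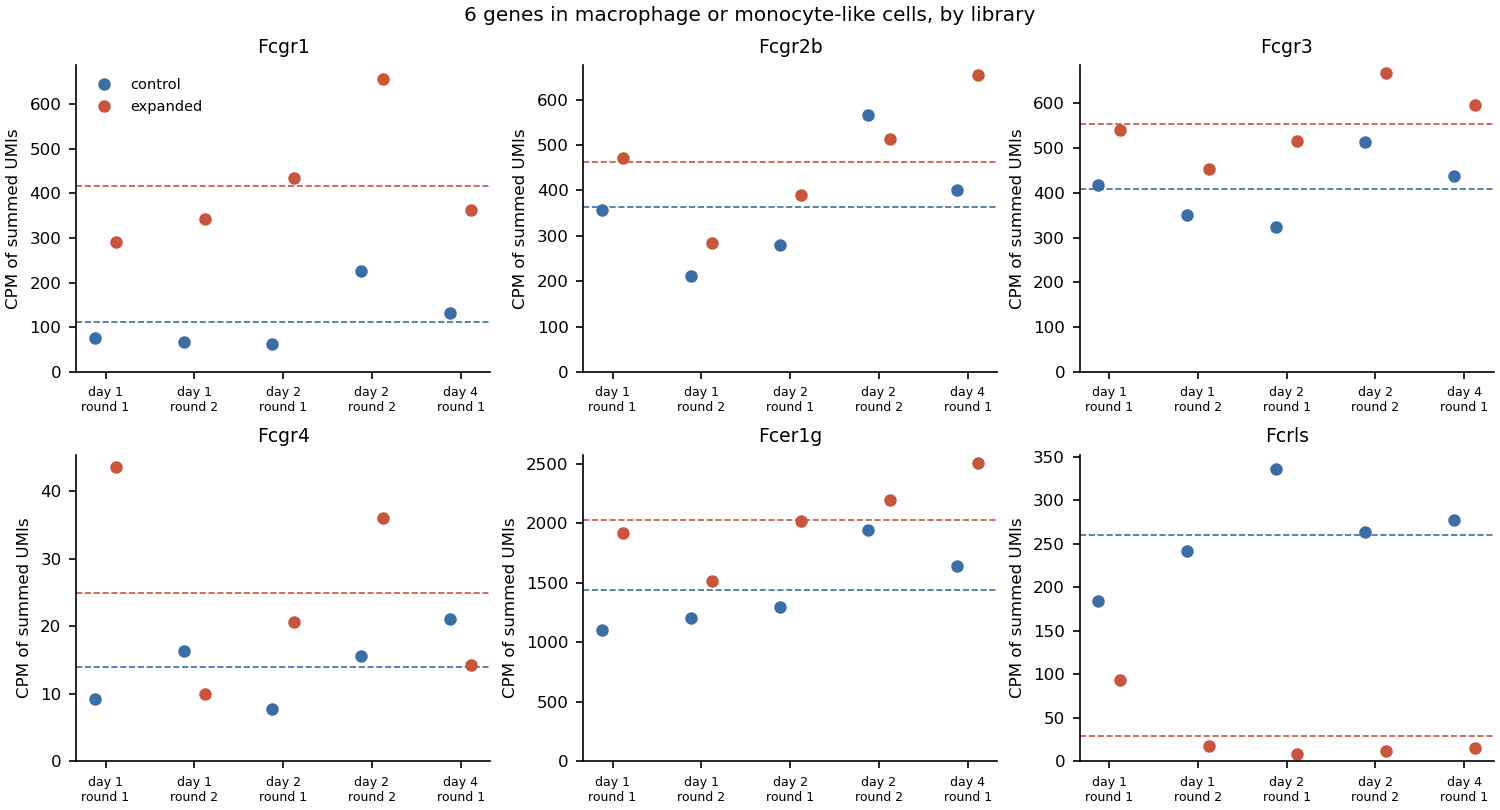
CPM (y axis) of each of the 6 genes in macrophage or monocyte-like cells by day and sequencing round (x axis), 1 point per library, with dashed lines at the arm means. Fcgr1 and Fcrls do not overlap between arms, in opposite directions, while Fcgr2b, Fcgr3, Fcgr4 and Fcer1g do.

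Different clusters held most of this class in each arm. Cluster 3, led by Chil3, Arg1, Ly6c2 and Plac8, genes of monocytes and recruited macrophages, held 333 control and 2208 expanded cells. Cluster 6, led by Cd209f, Folr2 and the C1q genes of resident macrophages, held 2197 control and 192 expanded cells. The class values above therefore mix cell makeup with level within a cluster, and the clusters were also taken apart.

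Within cluster 3, Fcgr1 was at 148, 119, 252 and 209 CPM in the 4 control libraries with at least 20 cells (both of day 1, day 2 round 2, day 4). The 5 expanded libraries had 421, 366.5, 437, 672 and 381 CPM, so the arms did not overlap. Within cluster 6, Fcgr1 was at 58.4 to 200 CPM in 5 control libraries and 178, 181 and 101 CPM in the 3 expanded libraries with at least 20 cells, which overlap. Between the clusters of control skin the ranges of 119 to 252 and 58.4 to 200 CPM also overlapped.

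For Fcgr2b the arms separated in the other cluster. Within cluster 6 it had 220.5, 267, 370, 407 and 511 CPM in control libraries, in rising order, and 676.5, 828 and 1020 CPM in expanded libraries, with no overlap. Those 3 expanded libraries, both of day 1 and day 4, rest on 75, 63 and 33 cells. Within cluster 3 the arms overlapped widely, and the level differed by day. Expanded libraries had 237 and 201 CPM at day 1, 388 and 509 CPM at day 2 and 627 CPM at day 4, and control libraries had 14.8 and 66.9 CPM at day 1, 622 CPM at day 2 (round 2) and 346 CPM at day 4. With 1 or 2 libraries per day the order of days was not tested. The activating to inhibitory ratio was 1.53 ± 0.246 in control (n = 5) and 1.07 ± 0.207 in expanded libraries (n = 3) of cluster 6, the reverse order of that in the whole class. In cluster 3 it was 1.26, 1.82 and 6.33 in the controls of day 2, round 2, of day 4 and of day 1, round 2, and 1.57 to 3.91 in expanded libraries. The day 1, round 1 control gave 24, from 3 Fcgr2b UMIs in 25 cells, and the 6.33 rests on 9 UMIs in 22 cells.

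Between clusters 3 and 6, Fcrls was higher in cluster 6, though the dendritic-like cluster 1 had a similar control level, at 275 ± 50.9 CPM (n = 5). In cluster 6 Fcrls had 191 to 359 CPM in control and 106 to 130 CPM in expanded libraries, with no overlap. In cluster 3 it had 14.8 to 168 CPM in control and 2.03 to 52.3 CPM in expanded libraries. The high value of 168 CPM in cluster 3 was again the control library of day 2, round 2. Fcer1g in cluster 6 was 1365 ± 271 CPM in control and 1988 ± 73.4 in expanded libraries, without overlap, and in cluster 3 it was 1795 ± 426 and 2023 ± 411, with overlap.

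**Figure D5:**
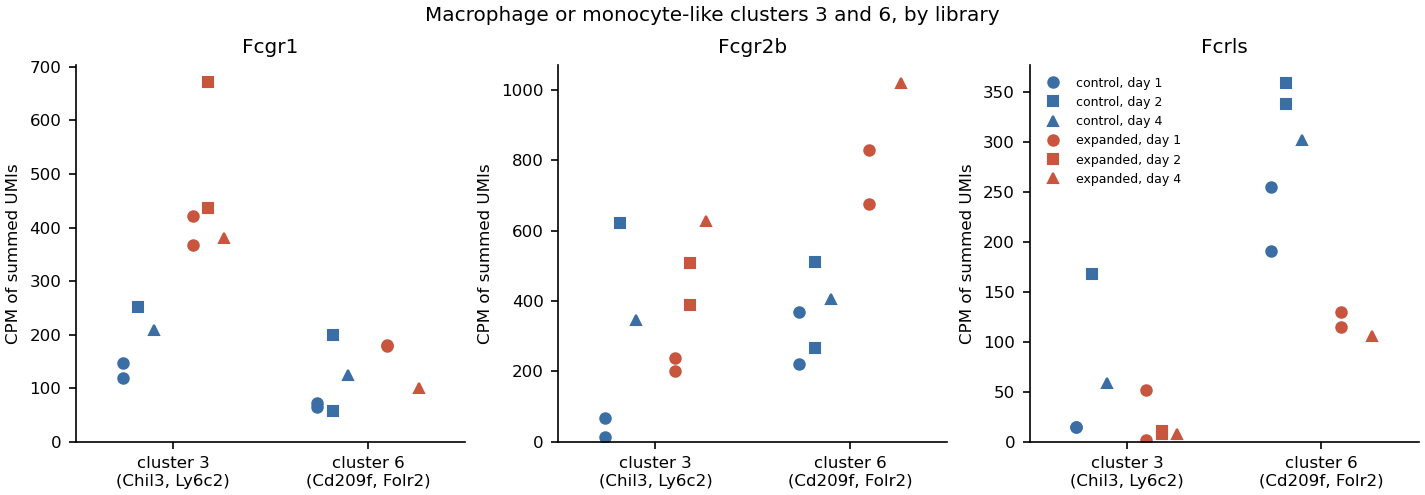
CPM (y axis) of Fcgr1, Fcgr2b and Fcrls in the monocyte cluster 3 and the resident macrophage cluster 6 (x axis), 1 point per library with at least 20 cells, with colour for the arm and symbol for the day. Fcgr1 separates the arms in cluster 3, Fcgr2b and Fcrls separate them in cluster 6, and Fcgr2b in cluster 3 is lowest at day 1 in each arm.

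Fibroblast transcripts in the macrophage or monocyte-like cells also differed between arms. The summed level of 8 fibroblast genes ran from 456.5 to 5234 CPM in control and from 48.95 to 606 CPM in expanded libraries. Of the tested genes 7 of 7 fell, beside 26.5% called among all genes of the class. In fibroblast-like cells themselves 7 of the 8 fell, beside 35.8%. The part of this RNA in the member values was not tested.

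Dendritic-like cells, which present antigen and take up immune complexes, had higher Fcgr2b in all 5 expanded libraries than in any control. The values were 467, 251.5, 404, 457 and 432 CPM in control and 764, 577, 478, 538 and 666 CPM in expanded libraries, in the order given for fibroblasts. The highest control and the lowest expanded library were close, at 467 and 478 CPM. The fitted log2 fold change was 0.38 ± 0.18 (SE) and the ratio of means was 1.503. By mouse, Fcgr2b overlapped between arms, at 220 to 599 CPM in 14 control and 459 to 748.5 CPM in 9 expanded mice. Fcgr1 was higher in 5 of 5 pairs, with ranges of 11.0 to 87.4 and 48.2 to 175 CPM. Fcer1g and Fcgr3 were also higher in 5 of 5 pairs, with overlapping ranges of 961 to 1451 and 1327 to 1833 CPM for Fcer1g. Their fitted log2 fold changes were 0.28 ± 0.11 for Fcer1g and 0.13 ± 0.18 for Fcgr3 (SE).

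Fcrls was at 228 to 336 CPM in control and 19.8 to 95.7 CPM in expanded dendritic-like cells, with no overlap. Without the day 2, round 2 control library the fitted values in this class were 0.41 for Fcgr2b and 1.57 for Fcgr1. The ratio of activating to Fcgr2b UMIs was 0.656 ± 0.197 and 0.646 ± 0.218. Of the 6 genes tested, 2 were called (Fcgr1 higher, Fcrls lower), beside 15.0% of 8897 genes, and nothing is read from that count. The summed fibroblast transcripts were at 378 to 5723 CPM in control and 61.7 to 879.5 CPM in expanded libraries. Of the tested genes 4 of 7 fell, beside the same 15.0%. Their part was not tested here either.

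Neutrophil-like cells, short-lived phagocytes, were 108 in control and 1238 in expanded libraries, and only 2 control libraries had at least 20, so no fit was made (3 per arm were needed). Fcgr4 had 105 and 113 CPM in these controls and 20.5, 94.6, 102, 190 and 57.5 CPM in the expanded libraries. The control values rest on 17 UMIs. Fcgr3 had 301 and 417 CPM against 236 to 423 CPM, and Fcer1g 2078 and 2694 CPM against 2041 to 3407 CPM. Fcgr2b had 33.8 and 60.2 CPM against 0 to 39.4 CPM. All of these ranges overlap between arms. Mast-like cells had Fcer1g and Fcgr3 but 0 UMIs of Fcgr4 in both arms.

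The genes that act beyond the receptors were followed by lists and were tested with edgeR's quasi-likelihood test, adjusted over all genes of the class. These lists, like the members, were chosen with earlier results of these libraries known. The genes named from them are those with the lowest p per direction. Their adjusted p-values are therefore descriptions and not independent tests. In macrophage or monocyte-like cells, 6 of 13 ITAM kinases and adaptors rose and 1 fell, with a median log2 fold change of 0.58 against 0.01 over all genes. That is 7 of 13 called, beside the 26.5% called among all genes of the class. The adaptor Lat2 rose from 52.2 to 166 CPM (log2 fold change 1.53, adjusted p = 0.00423), the Src-family kinase Fgr from 16.7 to 46.6 CPM (1.35, adjusted p = 0.00613) and the ITAM adaptor Tyrobp from 859 to 1392 CPM (0.58, adjusted p = 0.00922). The adaptor Blnk fell from 118 to 23.8 CPM (-2.45, adjusted p = 0.00234). Each of the 4 moved in the same direction in 5 of 5 pairs.

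On the inhibitory side, 2 of 12 ITIM phosphatases and inhibitory receptors rose in these cells and 0 fell, beside the same 26.5%. They were the adaptor Dok3, from 17.7 to 35.9 CPM (adjusted p = 0.014), and Sirpa, the receptor for CD47, from 300.4 to 456 CPM (adjusted p = 0.0323). The list's median log2 fold change was 0.20. Of the phagocyte oxidase, which makes superoxide after uptake, 2 of 6 subunits rose and 1 fell (26.5% over all genes). Cyba went from 685 to 1385 CPM (adjusted p = 0.00589) and Ncf4 from 140 to 272 CPM (adjusted p = 0.0105), while Cybb went from 439.5 to 261 CPM (adjusted p = 0.0496). The members of the oxidase thus did not move together.

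Fcgrt, the neonatal Fc receptor that recycles IgG, fell in macrophage or monocyte-like cells from 280 to 101 CPM (log2 fold change -1.63, adjusted p = 0.0127). It fell in fibroblast-like cells from 201 to 118 CPM (-0.997, adjusted p = 0.000326). It was 1 of 2 genes of the list of other Fc receptors that could be tested in each of these classes. Of 9 immunoglobulin chains only Ighm passed the filter in macrophage or monocyte-like cells, where it fell from 110.5 to 18.2 CPM (adjusted p = 0.00104). None of the 9 passed in fibroblast-like cells.

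Among 14 regulators of Fc receptor transcription, 1 rose and 3 fell in macrophage or monocyte-like cells, a count near the 26.5% of all genes. The interferon-response factor Irf1 rose from 70.5 to 103 CPM (adjusted p = 0.0462). Stat3 fell from 309 to 184 CPM (adjusted p = 0.00591), the TGF-beta receptor Tgfbr2 from 160 to 74.1 CPM (adjusted p = 0.00622) and Irf8 from 131 to 86.2 CPM (adjusted p = 0.0245). Genes of resident macrophages fell in 6 of 6 cases, those of MHC class II macrophages in 5 of 5, and those of monocytes or recruited macrophages rose in 7 of 7. The shares of clusters 3 and 6 differed between arms beside these counts.

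In fibroblast-like cells, where Fcgr2b was found beside low levels of the activating receptors, 5 of the 13 ITAM genes and 4 of the 12 ITIM genes passed the filter. Of these, Lat2 (0.808 to 2.34 CPM, adjusted p = 0.0276), Lyn (2.33 to 5.31 CPM, adjusted p = 0.0383) and Dok1 (5.96 to 12.1 CPM, adjusted p = 0.0346) rose and 0 fell. These 3 of 9 tested genes stand beside 35.8% called among all genes. Lyn is the kinase known to phosphorylate the ITIM and Dok1 an adaptor downstream of it, and the pan-leukocyte gene Ptprc had 1.18 to 10.9 CPM in the same libraries. Of 13 tested regulators, 0 rose and 2 fell, below that share, Cebpb from 1386 to 1119 CPM (adjusted p = 0.0257) and Irf1 from 193 to 168 CPM (adjusted p = 0.029).

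In dendritic-like cells 4 of 13 ITAM genes rose and 1 fell, and 5 of 12 ITIM genes rose and 1 fell, beside 15.0% called among all genes. The inhibitory receptor Cd72 went from 21.3 to 67.9 CPM (log2 fold change 1.61, adjusted p = 0.00168), Dok3 from 4.30 to 16.6 CPM (adjusted p = 0.00907) and Sirpa from 151 to 307 CPM (adjusted p = 0.0117). The phosphatase gene Ptpn11 fell from 64.9 to 50.3 CPM (adjusted p = 0.013). Among ITAM genes Card9 rose from 6.66 to 16.7 CPM (adjusted p = 0.0128). The median log2 fold changes of the ITAM and ITIM lists were 0.25 and 0.28, against 0.01 over all genes.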

How the data were processed

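The authors' deposited matrices hold raw UMI counts per gene and barcode, made with Cell Ranger 6.1.2 on mm10 per the submitters' processing notes, and the annotation is not given in the sources used here. The members and gene lists were chosen with earlier results of these data known.

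Of 55174 barcodes, those under 200 genes, under 500 UMIs or over 10% mitochondrial UMIs were removed (8.60% to 24.4% per library were over that limit). Doublets called by Scrublet (0.0584% to 2.97% per library) or carrying 2 hashtags were removed (1186 cells). Clusters (scanpy 1.11.5, leidenalg 0.10.2, 2000 variable genes, 30 components, resolution 1) were built without the 6 genes and named when at least 3 markers were found. The scoring and the rule for ties were set after the clusters had been seen. Of the kept cells, 492 carried a barcode also kept in another library.

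Counts were summed per class and library and tested with edgeR 4.0.16 (quasi-likelihood, TMM, filterByExpr, arm with day as covariate, adjusted p under 0.05, two-sided), where at least 3 libraries per arm had 20 cells. DESeq2 1.42.0 was an alternative. Tested on simulated data with 200 changed genes, the fit recovered log2 changes of 1 in 64% of cases (fibroblast-like, 12150 genes), 45% (macrophage or monocyte-like, 9653 genes) and 63.3% (dendritic-like, 8791 genes). Control and expanded libraries share a sequencing round per the labels, and same-round libraries deviated together (r 0.23 to 0.35 over genes, days 1 and 2), so the paired fit with the round as a block was run. Thinning to 2000 UMIs left out 3551 cells. Named genes were all members, their 3 most alike genes, and of each list at most 3 genes with the lowest p per direction; clusters and their leading genes were singled out after their values were seen. Promoters were taken from RefSeq (GRCm38.p6), matched for 6 of 6 genes.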

Additional observations from a re-analysis of the deposited data

Results flagged for a closer look

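In each arm of 5 libraries, a library was marked when its gap to the nearest other library, as a share of the arm's range, was above 0.71, and 5 of 35 arms tested had one, where chance gives about 1 in 20. In fibroblast-like cells Fcgr2b was at 47.4 CPM in the day 2, round 2 control library, against 2.73 to 12.8 CPM in the other 4 controls. The same library had 1.63 CPM of Fcgr1, against 0 to 0.429 CPM. Fcgr1 was at 6.33 CPM in fibroblast-like cells of the day 2, round 1 expanded library, against 0.279 to 0.604 CPM in the other expanded libraries. That library also had 238 CPM of summed immune transcripts in these cells, beside a median of 56.4 CPM over the expanded libraries, and their part in the value was not tested.

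Fcrls stood apart in the day 1, round 1 expanded library in both antigen-presenting classes. It had 93.3 CPM in macrophage or monocyte-like cells, against 8.07 to 16.9 CPM in the other expanded libraries, and 95.7 CPM in dendritic-like cells, against 19.8 to 41.1 CPM. In that library 58.6% of the macrophage or monocyte-like cells lay in the resident cluster 6.

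For 3 results every pair of one day moved one way and every pair of another day the opposite way, a difference that was not tested. Fcgr4 in macrophage or monocyte-like cells was higher in expanded libraries by a mean of 16.6 CPM at day 2 and differed by -6.89 CPM at day 4. In fibroblast-like cells the expanded minus control difference of Fcgr1 was 0.159 CPM at day 1 and -0.149 CPM at day 4. That of Fcgr4 was 0.114 and -0.11 CPM. Day 4 had only 1 pair, and both fibroblast-like results are within what few counts can give. Fcgr1 had 5 and 3 UMIs in the expanded libraries of day 1 and 1 UMI in that of day 4. Fcgr4 had 42 UMIs over all control and 18 over all expanded libraries.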

How the results depend on the processing

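Of 246 member values under the alternatives in fibroblast-like and both antigen-presenting classes, 244 kept their direction and moved by less than the spread between libraries. The exceptions were in fibroblast-like cells with no UMI of 11 immune genes, where the log2 fold change of Fcer1g was -0.43 (1.30 in all cells) and that of Fcgr3 -1.49 (-0.79). The spread is the mean SD of log2 CPM within an arm, over all days. Many of the alternatives are refits that leave out a library and share most of their data, so the count says little. Thinning each cell to 2000 UMIs gave 2146 called genes in fibroblast-like (4389 unthinned), 1549 in macrophage or monocyte-like (2593) and 413 in dendritic-like cells (1335). Without the filter on low counts 2073 were called in dendritic-like cells. Leaving out each library in turn gave 3356 to 4266, 1531 to 2970 and 553 to 1695 called genes. The count in macrophage or monocyte-like cells was 1531 without either day 4 library. In dendritic-like cells it was 758 and 795 without the day 1, round 1 control and expanded libraries, 553 without the day 1, round 2 control, 640 without the day 2, round 2 expanded library, and 573 and 561 without the day 4 control and expanded libraries. The log2 fold change of Fcgr2b in fibroblast-like cells was 2.03 to 3.23 over the same runs. With the round as a replicate block (pairing), 4681, 3243 and 1903 genes were called and that value was 2.65. At a clustering resolution of 0.5 the mean of Fcgr2b in expanded fibroblast-like cells was 100.9 CPM (57.2 at 1), and that of Schwann-like cells was 15.0 CPM in control and 5.95 CPM in expanded libraries (109 and 330 at 1), which turns the direction, since only 1 of the glial clusters kept the name. DESeq2 called 4713, 3198 and 1598 genes. The causes of these moves were not tested. Alternatives for neutrophil-like cells were not run, since no fit was possible there. Low counts limit Fcgr1, Fcgr4 and Fcrls in fibroblast-like cells, which did not pass the filter.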

Other observations

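The leading genes of the unnamed cluster 20 include Ccl22, Ccr7 and Xcr1, genes of migrating and cross-presenting dendritic cells, and the Langerhans cell markers Cd207 and Ltc4s. Its marker score was 1 for Langerhans and 0.875 for dendritic cells, so it may mix these cells. It had 85.5 ± 14.9 CPM of Fcgr2b in control and 124 ± 44.5 CPM in expanded libraries. In T cell-like cells Fcgr2b was at 149 CPM in the day 1, round 1 expanded library. That library's T cell-like cells also had 1006 Lyz2 UMIs, against 11 to 115 in the other expanded libraries, and 11370 CPM of summed immune genes, against 3305 to 4676 CPM. Their part in the value was not tested.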
